A study of Mus musculus with 2 samples.

Results

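Apolipoproteins are the protein components of lipoprotein particles, and 10 apolipoprotein genes were followed here in cultured mouse hepatoblasts at an early and a late passage: Apoa1, Apoa2, Apoa4, Apoa5, Apob, Apoc1, Apoc2, Apoe, Apom and Apoh. The members were the gene probes that the array design names for these genes, which gave 15 probes for 10 of the 20054 named genes on the array. Hepatoblasts are progenitor cells of the developing liver. Expandable hepatoblasts of strain C57BL/6 were grown in a defined medium with epidermal growth factor (10 ng/ml), the GSK3 inhibitor CHIR99021 (3 μM), the TGF-beta receptor inhibitor E-616452 (2 μM), lysophosphatidic acid (5 μM), sphingosine 1-phosphate (0.5 μM) and nicotinamide (5 mM), a medium that both passages shared. Total RNA of passage 5 cells and of passage 20 cells was hybridised to 1 array each, with Cy3 label in both. The labels state that the passages came from independent experiments, so passage and experiment cannot be told apart. They do not say which culture grew on Matrigel and which on laminin.

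There was no replicate of either passage. Every difference below therefore compares 2 arrays, no p-value can be given, and the errors quoted are those of spots, not of cultures. Both arrays lay on 1 slide and were read in 1 scan. Levels are log2 signals relative to the 75th percentile of each array, differences are passage 20 minus passage 5, and the number of arrays limits the precision. A gene was called different at 2-fold, a fixed size and not a test.

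Apolipoproteins solubilise lipids in plasma and direct particles to receptors and enzymes. Apob is the structural protein of very low density and low density lipoproteins and of chylomicrons. Apoa1 and Apoa2 are the main proteins of high density lipoprotein, Apoe is the ligand by which remnant particles bind their receptors, and the small C proteins regulate lipase activity and particle uptake. Hepatocytes are the main source of most of them; gut epithelium makes Apob, Apoa1 and Apoa4 as well, and macrophages make Apoe.

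The probes that carry the results are 60 bases long, and their sequences are shown because each value below is the signal of 1 such stretch of the transcript. They are given 5′ to 3′ as in the scanner files, with positions in mm9, the build of the array design. The Apoe and Apoa1 probes were each printed at 10 spots, and the 5 Apob probes lie along a long transcript, between bases 3189 and 13516.
Apoe, chr7:20281732-20281791, minus strand, transcript bases 1052 to 1111: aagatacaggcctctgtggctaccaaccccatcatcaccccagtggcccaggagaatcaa
Apoa1, chr9:46037921-46037980, plus strand, transcript bases 356 to 415: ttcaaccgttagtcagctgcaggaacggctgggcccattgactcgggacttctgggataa
Apob, chr12:8005482-8007691, plus strand, transcript bases 3189 to 3248: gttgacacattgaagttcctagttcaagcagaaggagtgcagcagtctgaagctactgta
Apob, chr12:8014710-8014769, plus strand, transcript bases 6486 to 6545: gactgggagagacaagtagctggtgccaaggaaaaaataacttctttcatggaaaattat
Apob, chr12:8018741-8018800, plus strand, transcript bases 10517 to 10576: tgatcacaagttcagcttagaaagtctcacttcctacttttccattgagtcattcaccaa
Apob, chr12:8023134-8023193, plus strand, transcript bases 13397 to 13456: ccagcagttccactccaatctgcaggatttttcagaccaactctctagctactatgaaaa
Apob, chr12:8023194-8023253, plus strand, transcript bases 13457 to 13516: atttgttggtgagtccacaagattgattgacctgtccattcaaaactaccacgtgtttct
The Apob probe from base 3189 covers 2210 bases of the genome with 60 bases of transcript, so it crosses an exon junction. Every one of these probes has at least 1 forward reading frame without a stop codon. In so short a stretch this cannot show that a probe lies in coding sequence, which was not annotated.

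Apob was higher at passage 20, Apoe and Apoc2 were lower, Apoa1 was seen at passage 5 only, and the other members gave no signal that could be compared. Of the 10 members, 3 were well above background on both arrays (Apob, Apoc2 and Apoe), 1 at passage 5 only (Apoa1) and 6 on neither (Apoa2, Apoa4, Apoa5, Apoc1, Apoh and Apom, with 7 probes). By the brightest probe of each gene, 1 member was at least 2-fold higher and 2 were at least 2-fold lower. As a background, 3.26% of the 11798 named genes measured by the same rule passed 2-fold as higher and 5.74% as lower. The median difference of the 4 measured members was -0.68 log2, against 0.07 for all named genes measured. In both medians, genes above background on 1 array count by a bound, which for Apoa1 is -0.25 log2. With members that lay on both sides of 0, the members' median describes none of them well.

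**Figure D1:**
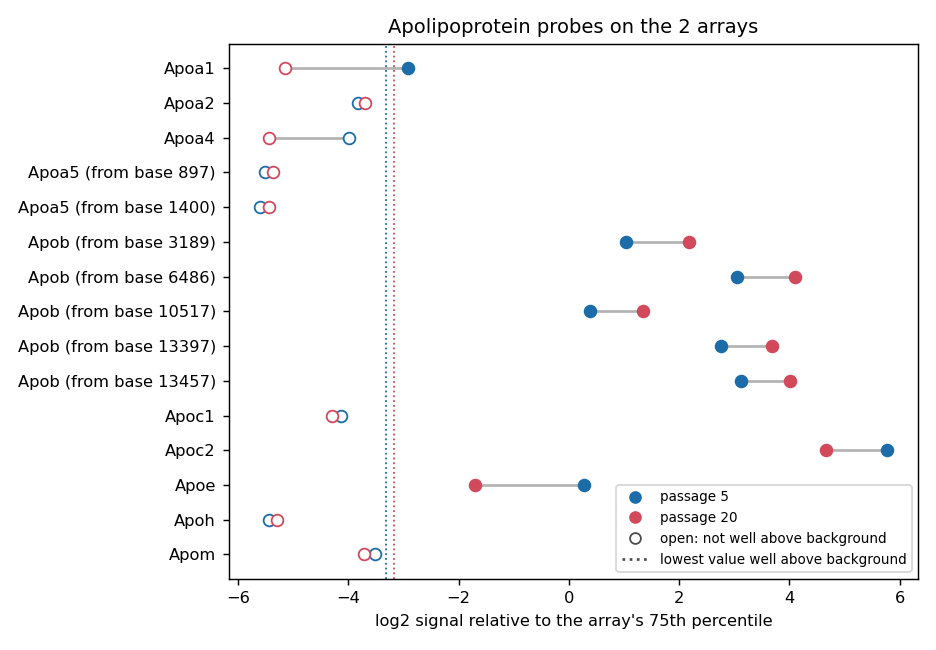
Log2 signal of each apolipoprotein probe relative to the 75th percentile of its array, at passage 5 (blue) and passage 20 (red), with open circles for probes not well above background and dotted lines at the lowest value well above background on each array (-3.32 and -3.17). All 5 Apob probes lie to the right at passage 20, Apoc2 and Apoe lie to the left, and levels of different probes are not comparable with each other.

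Apoe had the largest difference of the members measured on both arrays. Its probe was read in 8 usable spots per array, and 2 of the 10 spots were left out because 1 array flagged them as outliers. The spot intensities, before scaling, lay between 1227 and 1366 at passage 5 and between 224 and 290 at passage 20. All 8 spots were well above background on both arrays. On the log2 scale the level was 0.27 ± 0.05 (SD over 8 spots) at passage 5 and -1.71 ± 0.11 (SD over 8 spots) at passage 20. This is a 3.95-fold lower signal at passage 20, a difference of -1.98 log2, and the single spots gave differences from -2.11 to -1.85. Of 10749 named genes above background on both arrays, 87 (0.809%) were lower by at least as much. The size depended on the background correction: normexp, which models the background from the unsubtracted signal, gave -1.43 log2, still over 2-fold.

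Apoc2, the activator of lipoprotein lipase, was lower as well. Its single spot had an intensity of 59387 at passage 5 and 21541 at passage 20. The levels were 5.77 and 4.66 log2, a 2.17-fold lower signal (-1.12 log2). The error that the scanner software gives for a single spot amounts to 0.20 log2 on such a difference. Among the 10749 genes measured on both arrays, 349 (3.25%) were lower by at least as much. The Apoc2 probe lies at chr7:20257027-20257086 on the minus strand, bases 472 to 531 of the transcript.

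**Figure D2:**
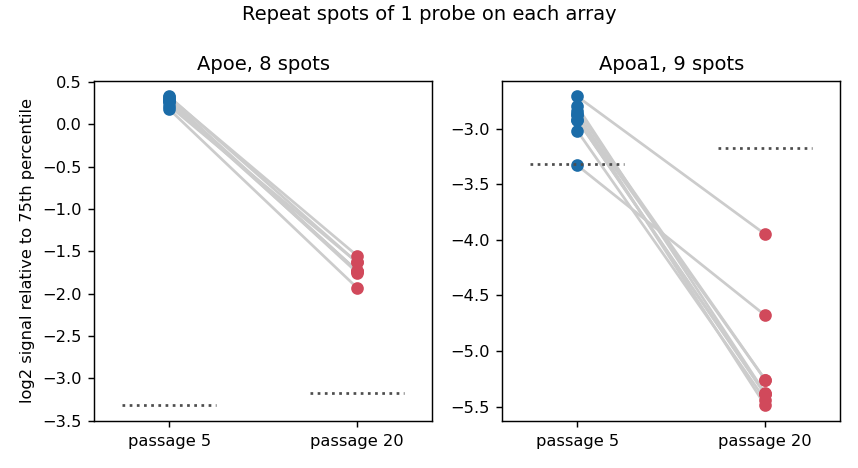
Each point is 1 spot of the Apoe probe (8 spots) or of the Apoa1 probe (9 spots), as log2 signal relative to the 75th percentile of its array, with lines joining the same spot position and dotted lines at the lowest value well above background. For Apoe both sets of spots lie above the dotted lines, while all Apoa1 spots at passage 20 lie under the line of that array.

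Apoa1, the defining protein of high density lipoprotein, was close to the limit of the array at passage 5 and under it at passage 20. Of its 9 usable spots, 8 were well above background at passage 5, with intensities of 108 to 166 over all 9. At passage 20 none of the 9 was well above background, 7 held the surrogate value that the software writes where a signal does not exceed noise, and intensities were 19.0 to 55.4. The 9 spots of passage 5 all exceeded the 9 of passage 20. This goes with the probe being detected at passage 5 only, and it is no separate support for a difference. The measured means were -2.92 ± 0.18 log2 (SD over 9 spots) and -5.14 ± 0.51 log2 (SD over 9 spots). The value at passage 20 is only an upper limit, so the difference is a bound: against the lowest level well above background at passage 20, Apoa1 was at least 1.19-fold lower (-0.25 log2), which does not reach 2-fold.

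Apob was the only one of the 4 measured members with a higher signal at passage 20. Its 5 probes do not overlap, and all were well above background on both arrays. The probe from base 3189 had an intensity of 2224 at passage 5 and 3860 at passage 20, and that from base 6486 had 8985 and 14669. The probe from base 10517 had 1416 and 2161. The adjoining probes from bases 13397 and 13457 had 7298 and 10985, and 9433 and 13740. In each of the 5 the passage 20 signal was the brighter one, although the 75th percentile of the passage 20 array was lower (853 against 1085).

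After scaling, the Apob probes from the 5′ to the 3′ end of the transcript differed by 1.14, 1.05, 0.96, 0.94 and 0.89 log2. These are folds of 2.21, 2.08, 1.94, 1.91 and 1.85, with a mean of 1.00 ± 0.10 log2 (SD over 5 probes). The differences decreased in order along the transcript, with a range of 0.25 log2. The single-spot error that the scanner software gives is 0.20 to 0.21 log2 on each. Repeat spots of the same probe varied less. Over 116 probes with at least 5 spots, all above background, the median SD of the difference was 0.0392 log2. The cause of the order was not tested. Only 2 of the 5 probes passed 2-fold, and the call rests on the probe from base 6486, the brightest over both arrays. The probe from base 13457 was almost as bright (levels 3.12 and 4.01 log2, against 3.05 and 4.10) and differed by 0.89, under 2-fold. The direction was the same in all 5. Of the 10749 genes measured on both arrays, 226 (2.10%) were higher by at least as much as the probe from base 6486. Under spike-in scaling the 5 probes differed by 0.67 to 0.93 log2, so that none of them reached 2-fold.

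**Figure D3:**
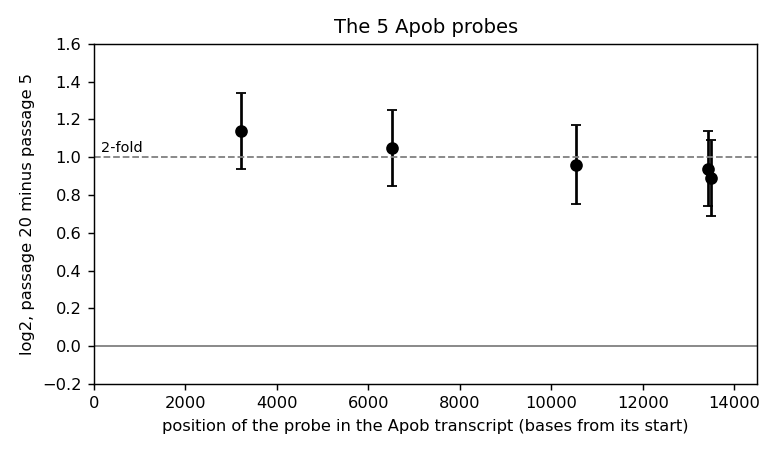
Difference of the 5 Apob probes in log2, passage 20 minus passage 5, against the middle of each probe in the transcript, with bars for the scanner's error of a single spot (0.20 to 0.21 log2). All 5 differences are positive, from 0.89 to 1.14, and lie around the dashed line at 2-fold.

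The other 6 members could not be compared between passages. Apoa5, which enhances lipolysis of triglyceride-rich particles, and Apoh, the plasma glycoprotein beta-2-glycoprotein I, held the surrogate value on both arrays, with intensities of 19.7 to 23.7 for the 2 probes of Apoa5 and 24.9 and 21.7 for Apoh. Apoa2 (76.8 at passage 5 and 65.9 at passage 20), Apoc1 (61.8 and 43.5) and Apom (94.3 and 65.4), a carrier of sphingosine 1-phosphate on high density lipoprotein, exceeded the noise on both arrays without being well above background. Apoa4, a protein of intestinal and hepatic particles, had an intensity of 68.7 at passage 5 and the surrogate value, 19.7, at passage 20. No fold is given for these genes, and their transcripts may be present at levels the arrays cannot measure.

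The genes for Apoe, Apoc1, Apoc4 and Apoc2 lie in a cluster on chromosome 7. Apoc4, which is in this cluster but not among the 10 genes, was above background on both arrays and differed by -0.51 log2 (intensities 493 and 273). Within 100 kb of the Apoe probe on either side, 7 named genes were above background on at least 1 array. Besides Apoc2, the 6 others differed by -1.51 to 0.21 log2, and 5 of them were within 2-fold. The exception was Tomm40, which encodes the channel of the mitochondrial outer membrane translocase and adjoins Apoe. Its 1 probe, 17.6 kb from that of Apoe, was 2.84-fold lower (-1.51 log2, intensities 2606 and 722). Beyond it Nectin2 differed by -0.05 log2 and Bcam by -0.66, and on the far side of Apoc2 Clptm1 differed by 0.06 and Relb by 0.21.

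Apoa1, Apoc3, Apoa4 and Apoa5 form the corresponding cluster on chromosome 9, where Apoc3 too was well above background on neither array. Their neighbours Sik3 (-0.01 log2), Zpr1 (-0.10) and Bud13 (0.76) were above background on both arrays and within 2-fold. No other named gene had its probe within 100 kb of that of Apob. The neighbours were looked at after the members' values had been seen.

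Genes that build and export Apob particles mostly differed little. Of 13 genes of lipoprotein assembly, 11 were above background on at least 1 array, with a median of 0.11 log2. Of these, 10 did not pass 2-fold, but the values of Apobec1 and A1cf are bounds and cannot show that they stayed within it. Mttp, which encodes the transfer protein that loads lipid onto Apob, was well above background on neither array (intensities 28.8 and 25.6). The disulfide isomerase gene P4hb, whose product is the other subunit of that transfer complex, differed by 0.11 log2. Cideb, a lipid droplet protein gene involved in loading of very low density lipoprotein, was 2.07-fold lower (-1.05 log2). Among the other members of this group with larger differences, Apobec1, the enzyme that edits Apob mRNA, was above background at passage 20 only, at least 1.35-fold higher. The sorting receptor gene Sort1 differed by 0.39 log2 (4 probes, from -0.04) and Mia2, an export factor for large cargo, by 0.36 (4 probes, 0.00 to 1.26).

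Among lipases and remodelling factors, 4 of 6 measured genes were past 2-fold as lower at passage 20 and none as higher. The median of the 6 was -1.15 log2, and -1.08 over the 5 above background on both arrays. Not past 2-fold were Lmf1 (0.36 log2), a lipase maturation factor gene, and Angptl8 (0.20). Lpl, the lipase that Apoc2 activates, was above background at passage 5 only and at least 5.63-fold lower by its brightest probe, while its other probe gave a bound of -0.75 log2. Angptl4, an inhibitor of this lipase, was 4.84-fold lower (intensities 23273 and 3780). Pltp, the phospholipid transfer protein gene, was 2.32-fold lower, and Lipa, which encodes lysosomal acid lipase, 2.11-fold lower. Lipc, Lipg, Lcat and Gpihbp1 were well above background on neither array.

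Most genes of lipoprotein uptake were at similar levels on both arrays. Of 14 measured genes of receptors and uptake, 12 did not pass 2-fold, 2 were past it as lower and none as higher. The median was -0.07 log2, and 0.04 over the 11 above background on both arrays. Among the 12, Amn has only a bound (at least 1.04-fold lower), so it may differ by more. Vldlr differed by -0.22 log2 by its brightest probe and by -1.04 by its other. The scavenger receptor gene Scarb1 differed by 0.04 log2 and the remnant receptor gene Lrp1 by -0.16. Lower were Mylip, which encodes a ubiquitin ligase (at least 5.52-fold, by 1 of its 2 probes), and the fatty acid translocase gene Cd36 (at least 3.61-fold, 1 of 2 probes). The sorting receptor gene Sorl1 differed by 0.59 log2.

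Cholesterol export genes had a median of -0.70 log2 over 5 measured genes, and of -0.53 over the 3 above background on both arrays. None of these 3 passed 2-fold. Abcg5, a subunit of a sterol exporter, and Abca1, the transporter that loads Apoa1 with lipid, were seen at passage 5 only. They were at least 2.77-fold and at least 2.06-fold lower, and the bound of such a gene cannot be positive. The lysosomal cholesterol genes Npc1 and Npc2 differed by -0.70 and -0.53 log2. Of 17 other apolipoproteins and lipoprotein-borne proteins, 7 were measured and none passed 2-fold. Their median was -0.03, and -0.07 over the 5 above background on both arrays. The value of Apol8 (at least 1.02-fold lower) is a bound, so this gene may differ by more. Clu, also called apolipoprotein J, was bright on both arrays (intensities 95336 and 94687) and differed by 0.34 log2. Saa1, an acute phase protein of high density lipoprotein, was 1.99-fold higher, and Pon3, a lactonase carried on these particles, differed by -0.51. Apol9b, of the apolipoprotein L family, was above background at passage 20 only (intensities 135 and 138). Its 1.30-fold higher signal is the measured difference, as its passage 5 level (-3.01 log2) exceeded the lowest value well above background there (-3.32).

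**Figure D4:**
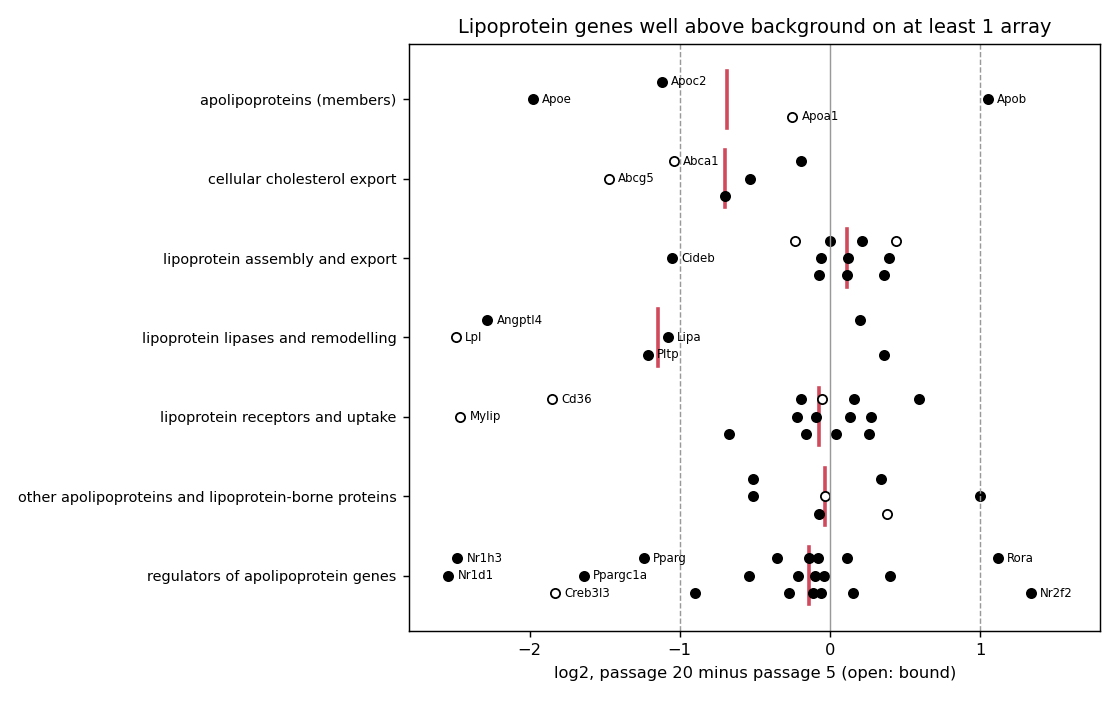
Each point is the log2 difference, passage 20 minus passage 5, of a gene well above background on both arrays (filled) or the bound of a gene above background on 1 array (open), by gene list, with red bars at list medians, dashed lines at 2-fold and names for members and for genes past 2-fold. The lipases lie mostly to the left, with a median of -1.15, and the assembly genes lie around 0, with a median of 0.11.

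Transcription factors that are known to act on apolipoprotein genes were mixed. Of 21 measured, 5 were past 2-fold as lower and 2 as higher, while the other 14 stayed within 2-fold; the median was -0.14 log2. Hnf4a, which drives many liver apolipoprotein promoters, differed by -0.21 log2 (3 probes, to 0.52), and the LXR beta gene Nr1h2 by -0.08. Nr1h3, which encodes LXR alpha, an oxysterol receptor, was 5.57-fold lower (intensities 1146 and 162). The clock repressor gene Nr1d1 was 5.81-fold lower by its brightest probe, with another probe at 0.58 log2. Ppargc1a, a coactivator of hepatic metabolism, was 3.13-fold lower, the fasting-response factor gene Creb3l3 at least 3.56-fold lower and Pparg 2.36-fold lower. The orphan receptor genes Nr2f2 and Rora were 2.54-fold and 2.17-fold higher, with 1 other probe of Rora at 0.00. Under spike-in scaling Rora was at 0.90 log2, under 2-fold, and Mlxipl, a carbohydrate-response factor gene, moved from -0.90 to -1.12, so that 1 gene of this list was past 2-fold as higher and 6 as lower. Cebpa and Ppara were well above background on neither array. These levels stand beside those of the members, and no link between them was tested.

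Markers of the labelled cell type were present in part. Of 6 hepatoblast markers 5 were measured: Afp, Hnf4a and Foxa2 differed by 0.09, -0.21 and -0.11 log2, Epcam was 2.24-fold lower and Gpc3 at least 9.49-fold lower, while Dlk1 was well above background on neither array. The array holds 9 hepatocyte markers; 8 of them, including Alb and Ttr, gave no signal well above background at either passage, and Fah was 3.83-fold lower. Other sources of apolipoprotein transcripts were checked in the same way. Of 10 macrophage markers 3 were measured. Cd68 was above background on both arrays and within 2-fold (intensities 481 and 478, 0.34 log2). Csf1r (154 and 56.0) and Lyz2 (122 and 31.7) were above background at passage 5 only. Their bounds, at least 1.28-fold and 1.02-fold lower, cannot show whether they stayed within 2-fold. The defining markers Adgre1, Ptprc, C1qa and Clec4f were well above background on neither array, and the summed intensity of the 10 was 1041 at passage 5 and 825 at passage 20, which relative to each array's 75th percentile is -0.06 and -0.05 log2. Of 7 enterocyte markers 4 were measured and 3 were lower, namely Cdx2 (2.32-fold), Fabp2 (2.61-fold as measured) and Fabp1 (at least 2.12-fold). Fabp2 and Fabp1 were above background at passage 5 only. Vil1 differed by -0.23, and Lct and Sis were well above background on neither array. The summed intensity of the 7 was 77669 and 44770, which relative to each array's 75th percentile is 6.16 and 5.71 log2. The part of these cell markers in the differences of Apoe, Apoc2 and Apoa1 was not tested. Fewer cells with a transcript and less of it per cell cannot be told apart in RNA of a whole culture.

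The scaling of the arrays bears on all members alike. Signals of the 7 external spike-in probes above background differed by a median of 0.22 log2 after scaling to the 75th percentile, so that scaling to them lowers every difference by that amount. Apoe then differed by -2.20 and Apoc2 by -1.33 log2. Of the list medians, that of the assembly genes changed sign (-0.11), and those of the receptors (-0.29), the other apolipoproteins (-0.25) and the transcription factors (-0.36) moved further below 0. In all 8 other settings of background and scaling Apoe stayed between -2.29 and -1.43 and Apoc2 between -1.43 and -1.11, both over 2-fold lower. Every Apob probe stayed positive in them, from 0.58 to 1.15 log2, and its brightest probe passed 2-fold in 4 of the 8.

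**Figure D5:**
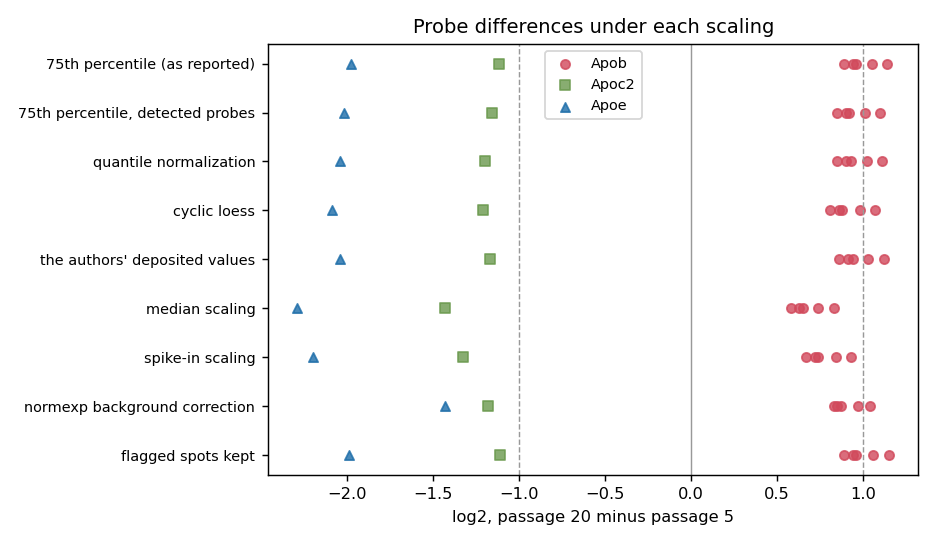
Log2 difference, passage 20 minus passage 5, of the Apoe probe (triangles), the Apoc2 probe (squares) and the 5 Apob probes (circles) as reported and under 8 other settings of background and scaling, with dashed lines at 2-fold. Apoe and Apoc2 stay left of -1 in each row, and Apob stays right of 0 but falls around or under 1.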

How the data were processed

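Per the file headers, the authors made the spot intensity values in version 10.7.3.1 of Agilent Feature Extraction: background-subtracted, detrended, and set to a surrogate value where they do not exceed noise. Flags for signal well above background and for outliers, and the unsubtracted intensity, were deposited too. The authors' deposited table holds log2 values; both columns have the same sorted values (largest gap 0.000609), so it was read as quantile-normalized and served as an alternative. The tool behind it is not given in the labels.

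Spots flagged on either array were dropped (132 of 43379), log2 signals were averaged per probe, and arrays were scaled by subtracting the 75th percentile of their 41158 gene probes. A probe counted as well above background where over 50% of its spots were. A gene took its brightest probe. With 1 array above background, the difference is a bound against the other array's lowest value well above background or the probe's own value there, whichever is higher. Of 41174 probes, 27668 were named by accession through RefSeq of GRCm38.p6, 5589 by symbol, 471 by an older symbol and 7446 were left unnamed. Alternatives used limma 3.58.1 in R 4.3.3 (normexp with offset 50, quantile, cyclic loess); the rest ran in Python 3.11.15. The steps were tested on simulated data with 200 changed genes.

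All 10 members are named, and of each pathway list the genes past 2-fold and up to 4 with the largest differences; genes that serve to describe a list's main functions were named outside this rule, after their values were seen. A few list members are not reported here. The members and lists were chosen with earlier results of these data known.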

Additional observations from a re-analysis of the deposited data

How the results depend on the processing

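With 1 array per passage no replicate could be left out, and no value here has an error between cultures. No paired analysis was possible because each passage has 1 sample. All 13 alternatives were run, 8 of background and scaling on the probe values. In these 8, no difference of an Apob, Apoc2 or Apoe probe changed sign. The bound of Apoa1 lay between -0.56 and -0.21, but by its rule it cannot be positive, so its sign is no check. The probes of the 6 members well above background on neither array were not followed across them. The brightest Apob probe (1.05) fell under 2-fold with normexp (0.97), cyclic loess (0.98), median scaling (0.74) and spike-in scaling (0.84), so that 0 members were then called higher, as with the mean over probes or a 4-fold threshold. The probe from base 3189 fell to 0.83 with median and 0.93 with spike-in scaling. The other Apob probes moved to 0.65, 0.63 and 0.58 with median scaling, and to 0.74, 0.72 and 0.67 with spike-in scaling. Apoc2 moved to -1.43 and -1.33 in these 2 settings. Apoe moved to -2.29 with median scaling and to -1.43 with normexp; the cause was not tested. The members called lower were 4 with no filter on dim probes, which lets in Apoa4 and takes the unbounded value of Apoa1, and 0 at 4-fold. The members' median was -0.99 with median scaling, -0.90 with spike-in scaling, -1.12 for the 3 above background on both arrays and -0.17 over all 10 with no filter. The median of all genes, 0.07 as reported, changed sign with median scaling (-0.24), spike-in scaling (-0.15) and cyclic loess (-0.02). Named genes at least 2-fold higher and lower, 385 and 677 as reported, were 252 and 398 with normexp, 193 and 1127 with median scaling, 1286 and 1286 with no filter, 1230 and 1388 at 1.5-fold and 59 and 161 at 4-fold. Spike-in scaling gave 230 higher, and 428 were lower with both arrays above background. Signals under background limit what can be said of 6 members.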

Other observations

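Known targets of the liver X receptors, which sense oxysterols and act on Apoe and the Apoc genes among others, were grouped after the values of Apoe and Nr1h3 had been seen, so the counts describe these arrays and support nothing. Of 20 such genes, 16 were measured on 1 array or both, 9 of them past 2-fold as lower and none as higher (median -1.08 log2, and -0.70 over the 12 above background on both arrays). The lower genes were Apoe, Apoc2, Nr1h3, Abca1, Abcg5, Lpl, Mylip and Pltp, with the values given above, and Smpdl3a, a secreted phosphodiesterase gene, which was 3.86-fold lower (intensities 569 and 116). The lipid synthesis targets did not share this: Srebf1 differed by -0.04 log2, Scd1 by 0.22, Scd2 by 0.23 and Fasn by 0.30, and the phospholipid remodelling gene Lpcat3 by -0.20. Apoc4 (-0.51) and Mlxipl (-0.90) were within 2-fold; under spike-in scaling Mlxipl passed it (-1.12), which made 10 lower genes. Abcg1, Abcg8, Apoc1 and Cyp7a1 were well above background on neither array, with an intensity of 109 at passage 5 and 19.7 at passage 20 for Abcg1.

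None of the 5 endothelial and 3 erythroid markers on the array was well above background on either array. Of 8 stellate cell and fibroblast markers 2 were measured. Acta2 differed by -0.10 log2 by its brightest probe (intensities 29241 and 21482) and by -3.11 by the other measured one of its 5 probes, and Dcn was at least 15.9-fold lower by 1 of its 2 probes. The collagen gene Col1a1 was well above background on neither array. Of 5 biliary markers, all measured, Spp1 was 6.83-fold higher (intensities 25091 and 134694) and the 4 others were within 2-fold.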
